A study of Mus musculus with 5 samples.

Results

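The Nkx2 and Nkx6 homeobox genes were followed across H3K27me3 peak lists of mouse embryonic fibroblasts (MEFs). The 10 genes, Nkx2-1, Nkx2-2, Nkx2-3, Nkx2-4, Nkx2-5, Nkx2-6, Nkx2-9, Nkx6-1, Nkx6-2 and Nkx6-3, were taken by name from the GENCODE annotation of mm9, out of 22350 protein-coding genes. Each start site (the 5′ end of the gene) and gene body was placed against the peaks of 3 lists. H3K27me3, trimethylated lysine 27 of histone H3, was measured by chromatin immunoprecipitation and sequencing (ChIP-Seq). The study asked how EZHIP and the H3.3 K27M oncohistone, both inhibitors of Polycomb Repressive Complex 2 (PRC2), change the distribution of this mark. Of 5 libraries, each the only one of its group, the lists of 3 were used here, and the Control and EEDnull libraries were not analysed here.

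The MEF line came from an embryo in which loxP sites flanked exons of Eed, which encodes a PRC2 subunit, so every group carried this floxed allele. The K27R cells overexpressed H3.3 with arginine in place of lysine 27, the K27M cells H3.3 with methionine at that position, and the EZHIP cells the human EZHIP protein, each from a stably integrated lentivirus. H3.3 K27R does not inhibit PRC2, and its list served as the reference. Each list stands for 1 library of 1 transduced line. No difference between lists could be set against the spread between replicates, and no test was made. The lists give positions on a grid of 200 bp with no height, score or read count, so sequencing depth is unknown and an absent peak does not show an absent mark.

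Nkx2 and Nkx6 proteins are homeodomain transcription factors that set cell identity in the ventral neural tube, foregut, heart and gut. PRC2 writes H3K27me3 over the promoters of such developmental regulators in cell types that do not use them, and the mark can spread from CpG islands, where PRC2 is recruited, into broad domains. EZHIP is the product of a gene expressed in childhood ependymomas of the posterior fossa, and H3 K27M is found in diffuse midline gliomas.

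The 250 bases before the start site of 4 genes are shown because their peaks behaved in distinct ways. Those of Nkx2-3 and Nkx2-5 kept the largest part of their K27R width in both other lists. Nkx2-4 had the largest narrowing as deposited, and Nkx6-2 lay in no peak of any list. Sequences are from NCBIM37 (mm9), read 5′ to 3′ on the strand of the gene. Capitals mark every CG dinucleotide, the dinucleotide that is dense in CpG islands, and no annotated exon overlaps these windows.
Nkx2-3, chr19:43686565-43686814, plus strand: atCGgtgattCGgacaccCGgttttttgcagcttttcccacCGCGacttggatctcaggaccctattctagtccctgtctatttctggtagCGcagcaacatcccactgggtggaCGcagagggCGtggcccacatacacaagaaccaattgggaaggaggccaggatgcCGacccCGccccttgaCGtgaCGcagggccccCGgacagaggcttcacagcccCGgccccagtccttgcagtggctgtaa
Nkx2-5, chr17:26978511-26978760, minus strand: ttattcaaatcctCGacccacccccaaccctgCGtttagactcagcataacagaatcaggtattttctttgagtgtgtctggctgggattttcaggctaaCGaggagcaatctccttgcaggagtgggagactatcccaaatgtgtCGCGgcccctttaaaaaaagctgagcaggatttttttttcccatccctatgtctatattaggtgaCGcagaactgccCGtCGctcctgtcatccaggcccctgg
Nkx2-4, chr2:146911182-146911431, minus strand: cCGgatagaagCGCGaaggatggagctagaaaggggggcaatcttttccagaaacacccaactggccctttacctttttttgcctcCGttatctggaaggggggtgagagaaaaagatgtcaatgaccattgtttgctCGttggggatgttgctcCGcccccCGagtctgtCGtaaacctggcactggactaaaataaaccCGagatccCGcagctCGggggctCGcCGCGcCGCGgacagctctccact
Nkx6-2, chr7:146768697-146768946, minus strand: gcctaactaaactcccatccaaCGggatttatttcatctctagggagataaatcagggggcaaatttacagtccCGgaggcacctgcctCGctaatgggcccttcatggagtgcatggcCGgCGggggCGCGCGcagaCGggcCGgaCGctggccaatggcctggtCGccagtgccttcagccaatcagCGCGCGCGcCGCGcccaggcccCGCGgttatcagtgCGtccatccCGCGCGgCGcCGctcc
The Nkx2-3 window held 14 CG, the Nkx2-5 window 8, the Nkx2-4 window 16 and the Nkx6-2 window 26. The median was 13.5 over the 10 genes and 8 over all protein-coding genes. The gene with most CG in this window was thus the one with no peak.

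Nearly all of the genes lay in H3K27me3 peaks, and most of them kept a peak in K27M and EZHIP cells. In the K27R list, 9 of the 10 start sites lay in a peak, against 30.1% of all protein-coding genes. The K27M list held 9 of the 10, against 9.02% of all genes, and the EZHIP list held 8 of the 10, against 7.73%. Among genes whose start site lay in a K27R peak, 29.9% were also in a K27M peak and 25.6% in an EZHIP peak, and for the Nkx genes these counts were 9 of 9 and 8 of 9. The exceptions were Nkx6-2, in no peak of any list, and Nkx6-3, in no EZHIP peak.

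**Figure D1:**
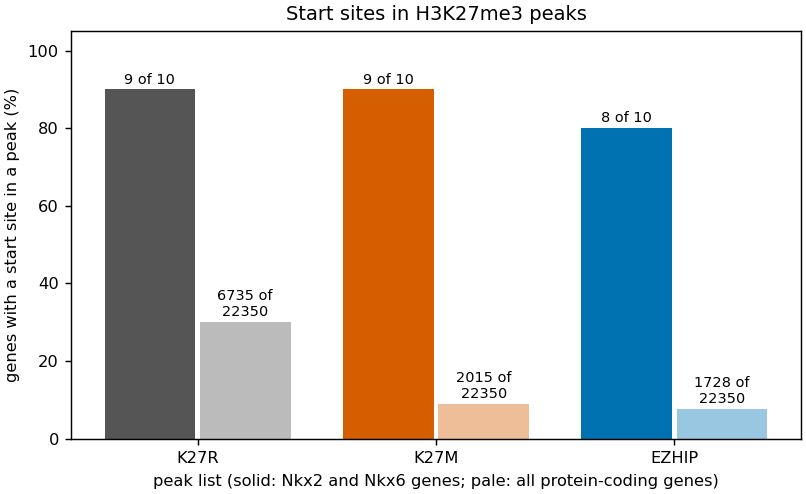
Percent of genes (y axis) whose start site lay in a peak of the K27R, K27M or EZHIP list (x axis), for the 10 Nkx2 and Nkx6 genes (solid bars) and for all 22350 protein-coding genes (pale bars). The solid bars stand at 9, 9 and 8 of 10 genes, while the pale bars fall from 30.1% in K27R to 9.02% in K27M and 7.73% in EZHIP.

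The counts were also set beside genes of wide K27R regions in general. The start site of 20.7% of protein-coding genes lay in a K27R region of at least 50 kb, a limit chosen after the widths of the Nkx regions were seen. Of those genes, 32.1% kept a K27M peak and 29.2% an EZHIP peak. The Nkx genes in regions of that width numbered 9, of which 9 kept a K27M peak and 8 an EZHIP peak. Among genes in both K27R and K27M peaks, 73.4% were also in an EZHIP peak, and 8 of 9 Nkx genes were.

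The peaks that remained were much narrower than the K27R regions. Over the 9 start sites in peaks, the median width was 305.4 kb in K27R, against 40.4 kb in K27M. It was 23.8 kb over the 8 start sites in EZHIP peaks. The same medians over all genes with a start site in a peak were 96.8 kb, 11.8 kb and 8.4 kb. The Nkx peaks were therefore wider than the median gene's in 6 of 9 cases in K27R, 8 of 9 in K27M and 6 of 8 in EZHIP. These values count each gene, and Nkx2-1 and Nkx2-9 share a K27R peak, as do Nkx2-2 and Nkx2-4. Counted once each, the 7 K27R regions had a median of 131.6 kb, beside 53.6 kb over all regions with a start site. At the genes that share a region, the fold narrowing below sets the whole region against the peak over a single gene. The fold narrowing from K27R to K27M ran from 1.69 at Nkx2-5 to 12.2 at Nkx2-4, with a median of 7.44, beside 7.59 over 2011 protein-coding genes. From K27R to EZHIP it ran from 1.90 to 42.4 with a median of 13.4, beside 11.9 over 1724 genes. In proportion, the median Nkx gene was thus narrowed about as much as the median gene, while it started and ended wider.

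**Figure D2:**
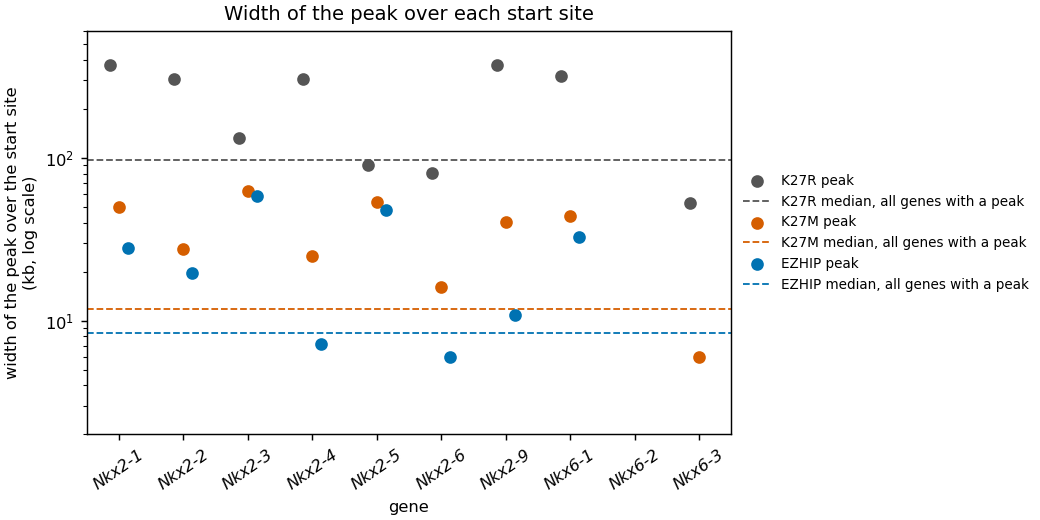
Width in kb, on a log scale (y axis), of the peak over each start site (x axis, 1 point per gene and list), with dashed lines at the median over all protein-coding genes with a start site in a peak of that list. K27M points lie above the K27M line of 11.8 kb for every gene with a peak but Nkx6-3, and EZHIP points lie above the EZHIP line of 8.4 kb for all but Nkx2-4 and Nkx2-6.

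EZHIP peaks were the narrower ones at every gene that had both. At 8 of 8 Nkx genes the EZHIP peak was narrower than the K27M peak, and it lay wholly inside it. Among all genes with a start site in both lists, the EZHIP peak was narrower at 78.7%. The ratio of K27M to EZHIP width was 1.08 at Nkx2-3, 1.12 at Nkx2-5, 1.35 at Nkx6-1, 1.41 at Nkx2-2 and 1.79 at Nkx2-1. It was larger at Nkx2-6, with 2.67, at Nkx2-4, with 3.47, and at Nkx2-9, with 3.74. The median ratio was 1.60 over the 8 Nkx genes and 1.42 over 1476 protein-coding genes. The lists differ in how closely peaks may stand, since K27R peaks could touch, with a smallest gap of 0 bp, while no K27M peaks were closer than 5200 bp and EZHIP peaks came as close as 1200 bp. For its H3K27me3 peaks the paper states common settings, with a maximum gap of 10 kb, and all 3 lists held smaller gaps than that. Whether the 3 lists were all called with these settings is therefore not known. Every width ratio between lists, those to K27R included, rests on the calls. With peaks up to 10 kb apart joined in every list, the EZHIP peak of Nkx2-4 widened from 7.2 to 19 kb and the K27M peak of Nkx2-6 from 16 to 39.8 kb. The narrowing from K27R to EZHIP at Nkx2-4 then fell from 42.4-fold to 16.1-fold, below the 34.6-fold of Nkx2-9, while Nkx2-4 kept the largest narrowing from K27R to K27M. The ratio of K27M to EZHIP width became 1.32 at Nkx2-4 and 6.63 at Nkx2-6, and EZHIP peaks were still the narrower at 8 of 8. At Nkx2-6 the joined K27M peak took in the separate peak over a neighbouring start site, while the EZHIP peak was not joined to any other. The ratio of 6.63 thus sets a peak over more than 1 gene against a peak over Nkx2-6 alone.

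Nkx2-1 and Nkx2-9 share a region on chromosome 12. Nkx2-1, needed to form the thyroid, lung and ventral forebrain, lies at chr12:57632922-57637895 on the minus strand. Nkx2-9, expressed beside the floor plate of the neural tube, lies at chr12:57712376-57714271, also on the minus strand, with its start site 76.4 kb away. In the K27R list, 1 peak of 373.6 kb, chr12:57449801-57823400, covered both genes together with Pax9, a paired box gene of pharyngeal pouch and tooth development. The K27M list had separate peaks here, of 50.2 kb over Nkx2-1, 40.4 kb over Nkx2-9 and 21.4 kb over Pax9, and a further peak of 2 kb over no start site. The EZHIP list had 28 kb over Nkx2-1, 10.8 kb over Nkx2-9 and 15.2 kb over Pax9. In both lists, separate peaks around the start sites thus stood in place of the single broad region. The order of widths was not the same, since Nkx2-9 had a wider peak than Pax9 in K27M and a narrower one in EZHIP.

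Nkx2-2 and Nkx2-4 share a region on chromosome 2 of similar make-up. Nkx2-2, which specifies ventral interneurons and is needed for pancreatic beta cells, lies at chr2:147003282-147019979 on the minus strand. Nkx2-4, a close relative of Nkx2-1 expressed in the hypothalamus and thyroid, lies at chr2:146909052-146911181 on the minus strand, 108.8 kb from it by start site. The K27R peak of 305.4 kb, chr2:146905201-147210600, held both genes and Pax1, the relative of Pax9. K27M peaks of 27.6 kb over Nkx2-2, 25 kb over Nkx2-4 and 8.8 kb over Pax1 remained. In the EZHIP list the Nkx2-2 start site kept 19.6 kb and Nkx2-4 kept 7.2 kb, while Pax1 had no peak. The K27M peak of Nkx2-4 began outside the K27R region, and all other K27M peaks over Nkx start sites lay inside theirs. Around Nkx2-4, EZHIP peaks of 7.2, 4.2 and 3.4 kb stood where K27M had a single one. Both regions hold a pair of Nkx2 genes and a Pax1 or Pax9 gene, and the Pax gene had the narrowest K27M peak of the 3 genes in each.

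Nkx6-1 had the widest region of the genes that share it with no other member. Nkx6-1, required for motor neuron progenitors and for beta cells, lies at chr5:102087158-102094245 on the minus strand. Its K27R peak spanned 318.4 kb, chr5:101937601-102256000, and also held the start site of Cds1, a CDP-diacylglycerol synthase gene. The K27M peak over Nkx6-1 was 44 kb and the EZHIP peak 32.6 kb wide. Cds1 kept 12.8 kb in K27M and 11.2 kb in EZHIP. Peaks of 5.4 kb and 2.8 kb lay in the same region over no start site.

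The heart genes differed from each other. Nkx2-5, a core regulator of cardiac development, lies at chr17:26975609-26978510 on the minus strand. Its K27R peak was 90.8 kb wide, its K27M peak 53.6 kb and its EZHIP peak 47.8 kb. The K27M peak had 59.0% and the EZHIP peak 52.6% of the K27R width. These were the largest shares among the Nkx genes. The K27R region was narrower than the median of 96.8 kb over all genes with a start site in a K27R peak. It was wider than the median of 53.6 kb over K27R regions with a start site, each counted once. Nkx2-6, expressed in pharyngeal endoderm and the outflow region of the heart, lies at chr14:69789633-69793596 on the plus strand. In the same order, its peaks were 81.2, 16 and 6 kb wide, with 19.7% and 7.39% of the K27R width left. With peaks joined as above, the K27M peaks of Nkx2-5 and Nkx2-6 were 67.4 and 39.8 kb wide, and their EZHIP peaks were unchanged. The joined K27M peak of Nkx2-6 included the peak over a neighbouring start site.

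Nkx2-3 had the widest remaining peaks of the Nkx genes as deposited. With peaks joined as above, the K27M peak of Nkx2-5, at 67.4 kb, was wider than the 63 kb of Nkx2-3. Nkx2-3, which acts in spleen and gut mesenchyme, lies at chr19:43686815-43690381 on the plus strand. Its peak was 131.6 kb wide in K27R, chr19:43601601-43733200, 63 kb in K27M and 58.6 kb in EZHIP. Its K27M peak reached 45.4 kb upstream and 17.6 kb downstream of the start site, and its EZHIP peak 43.6 kb and 15.0 kb. Further peaks of 20.2 kb in K27M and 13 kb in EZHIP lay in the same region over no start site, and these were the widest such pieces in any of the Nkx regions.

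Nkx6-3, a gene of the stomach epithelium, was the only one of the 10 in a K27M peak and in no EZHIP peak. It lies at chr8:24263743-24269420 on the plus strand. Its K27R peak of 52.8 kb, chr8:24242001-24294800, was the narrowest of the 9. The K27M peak, chr8:24263001-24269000, was 6 kb wide, reached 0.742 kb upstream of the start site and covered 92.6% of the gene body. The nearest EZHIP peak was 139 kb from the start site. Ank1, an ankyrin gene whose body ends 2.77 kb upstream, had its start site in a region of its own and kept peaks of 27 kb in K27M and 20.4 kb in EZHIP.

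**Figure D3:**
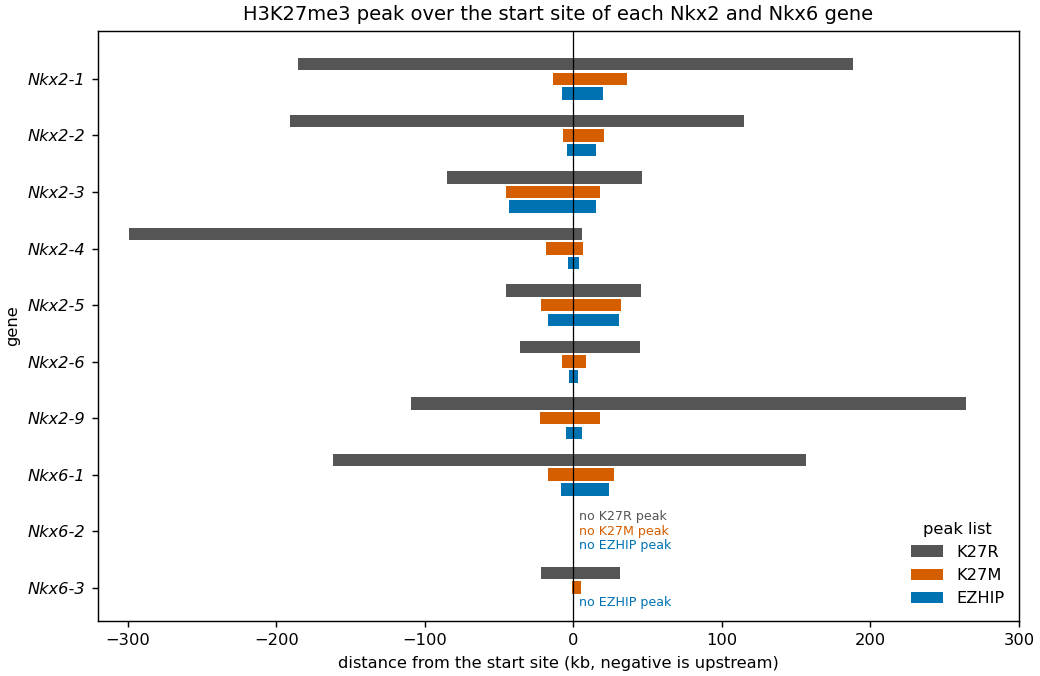
Extent of the peak over each start site in kb upstream (negative) and downstream (positive) of it (x axis), for each gene (y axis) in the K27R, K27M and EZHIP lists, with each gene drawn in its own direction of transcription. K27R bars of 52.8 to 373.6 kb are longer than the K27M and EZHIP bars at each of the 9 genes, Nkx6-3 has no EZHIP bar and Nkx6-2 has none at all.

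Nkx6-2, a regulator of ventral neural tube and myelin genes and the closest relative of Nkx6-1 among the 10, lies at chr7:146765276-146768696 on the minus strand. The nearest K27R peak was 1975 kb from its start site, the nearest K27M peak 2246 kb and the nearest EZHIP peak 2251 kb. The whole end of chromosome 7 held no peak in any list: the last K27R peak ended at position 144794000, which left 7.73 Mb and 167 protein-coding start sites without one, 64 of them in a CpG island. On the other chromosomes the stretch after the last K27R peak was at most 1.66 Mb. On the rest of chromosome 7, 17% of start sites lay in K27R peaks, 4.62% in K27M peaks and 3.88% in EZHIP peaks. The lack of a peak at Nkx6-2 and the lack of peaks over the whole of this chromosome end cannot be told apart, and the cause was not tested. Of the 9 genes elsewhere, 9 lay in K27R peaks, 9 in K27M peaks and 8 in EZHIP peaks.

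Gene bodies, which begin at the start sites, kept more of their coverage than windows of 25 kb on both sides did. The bodies of the 9 genes lay wholly in K27R peaks, and those of 8 of them wholly in K27M peaks. In EZHIP the covered share was 89.7% for Nkx2-2, 79.9% for Nkx2-6, 0 for Nkx6-3 and complete for the other 6. Summed over the 10 genes, the K27R peaks covered 48.9 kb of gene body, the K27M peaks 48.5 kb and the EZHIP peaks 40.7 kb. Within 25 kb on both sides of the start sites they covered 427.7 kb, 296.9 kb and 199.3 kb. Coverage of the bodies was thus nearly level from K27R to K27M and lower in EZHIP, while that of the wider windows fell in both. The bodies were only 1.9 to 16.7 kb long. A peak that narrows but stays over the start site covers such a body more fully than a wide window. The same sums over all genes are not given here.

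At 25 kb upstream of the start site, 8 of the 10 genes were in a K27R peak, 1 in a K27M peak and 1 in an EZHIP peak. The one gene still in both residual lists at that distance was Nkx2-3. At 25 kb downstream the counts were 8, 5 and 1. Of the 5 genes in K27M, only Nkx2-1, Nkx2-5 and Nkx6-1 had a peak over the start site that reached this far. The position of Nkx2-6 lay in a separate peak over a neighbouring start site, and that of Nkx2-9 in a separate peak of 2 kb over no start site. At 50 kb no gene was in a K27M or EZHIP peak on either side, while 6 upstream and 4 downstream positions were in K27R peaks. Positions farther out also re-entered peaks in a few cases, with 2 genes upstream and 2 downstream in K27M peaks at 100 kb. Those positions lay in the peaks over Nkx2-2, Cds1, Nkx2-1 and Nkx2-4, which share regions with the genes in question.

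**Figure D4:**
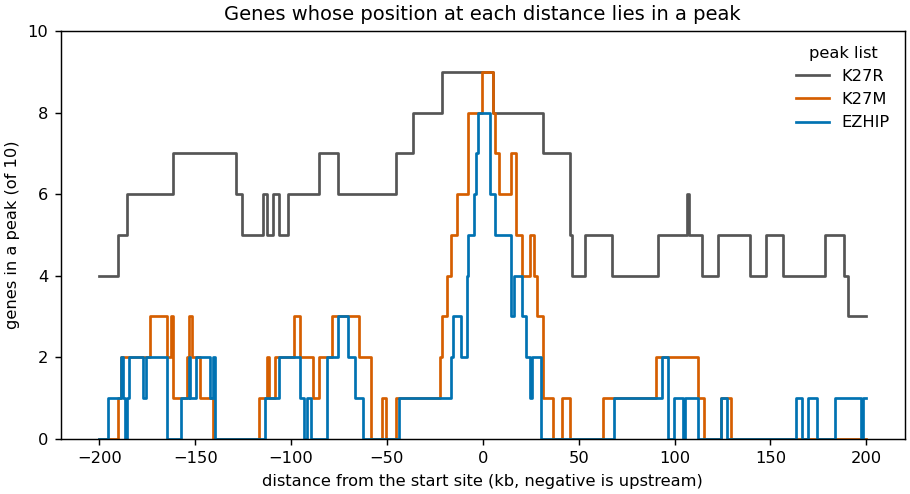
Number of the 10 genes (y axis) whose position at a given distance from the start site in kb (x axis, negative is upstream) lies in a K27R, K27M or EZHIP peak. All 3 lines peak at the start site, at 9, 9 and 8 genes, and the K27M and EZHIP lines are at 0 by 50 kb on both sides while the K27R line is at 6 and 4.

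The 9 genes lay in 7 K27R regions of 1353.8 kb in all, with a median of 131.6 kb beside 53.6 kb over the 3623 K27R regions that hold a protein-coding start site. K27M peaks took up 420.2 kb, or 31.0% of this length, and EZHIP peaks 271.6 kb, or 20.1%. Over all regions with a start site these shares were 12.9% and 9.10%. The median among all those regions was 0% in both lists, so these shares include many regions without a residual peak. Single regions kept from 11.4% in K27M at Nkx6-3 to 64.1% at Nkx2-3. In EZHIP they kept from 0 at Nkx6-3 to 58.7% at Nkx2-3. Regions that held a single Nkx gene and no other start site, those of Nkx2-3, Nkx2-5 and Nkx6-3, supplied both the highest and the lowest of these shares.

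**Figure D5:**
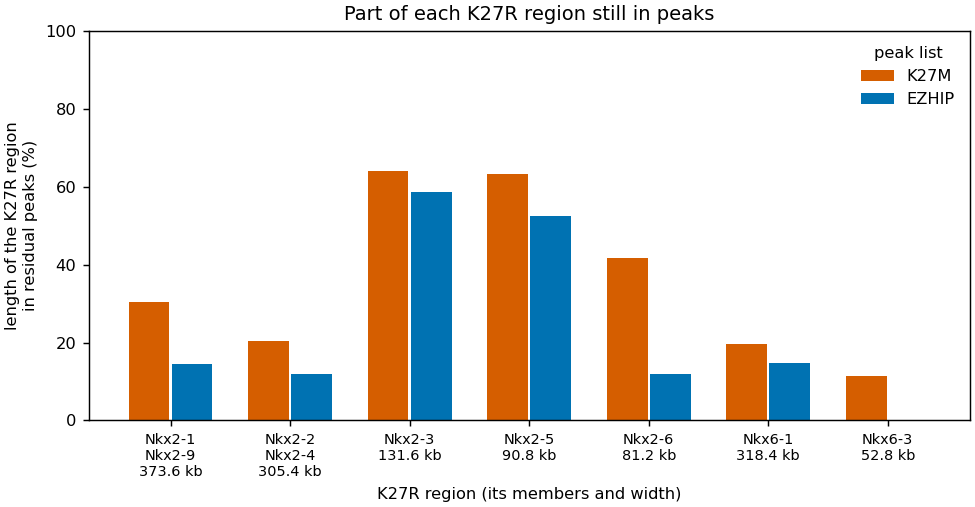
Percent of the length of each of the 7 K27R regions (y axis, to 100) that lay in K27M or EZHIP peaks, with the Nkx genes and the width of each region on the x axis. The Nkx2-3 and Nkx2-5 regions stand above 50% in both lists, and the Nkx6-3 region is at 11.4% in K27M and 0 in EZHIP.

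Nearly all of the EZHIP peak length in these regions lay in K27M peaks, and a smaller part of the K27M length in EZHIP peaks. K27M and EZHIP peaks shared 267 kb, which was 98.3% of the EZHIP length and 63.5% of the K27M length. All 17 EZHIP peaks there overlapped a K27M peak, against 64.6% of EZHIP peaks genome-wide. Conversely, 14 of the 19 K27M peaks there met an EZHIP peak, a share near the 68% of K27M peaks genome-wide. The 5 that did not were the peaks over Nkx6-3 and Pax1 and 3 of 4 kb or less over no start site.

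Remaining peaks in the Nkx regions held either both a CpG island and a start site or neither. A CpG island lay in 13 of the 19 K27M peaks, against 54% of all K27M peaks, and in 11 of the 17 EZHIP peaks, against 37.1% of all EZHIP peaks. Each of these 13 and 11 peaks also held a protein-coding start site, for most of them that of an Nkx gene. The regions were taken because they hold these genes, while the shares cover peaks anywhere in the genome. The counts and shares are therefore not of like sets. The other 6 peaks of the regions in each list held neither an island nor a start site. Peaks with an island had a median width of 25 kb in K27M and 15.2 kb in EZHIP, and those without one of 3 kb and 3.8 kb. The widths overlapped. Peaks with an island were as narrow as 6 kb in K27M and 3.6 kb in EZHIP, and those without one as wide as 20.2 and 13 kb. Of the 38 islands in the regions, 34 (89.5%) lay in K27M peaks and 30 (78.9%) in EZHIP peaks. Over all K27R regions with a start site, 49.5% and 42.1% of islands did.

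CG content at the start sites varied widely among the genes. Within 1 kb of the start site, the number of CG dinucleotides was 178 at Nkx2-4, 163 at Nkx6-2, 151 at Nkx6-1, 133 at Nkx2-2, 92 at Nkx2-1, 80 at Nkx2-3, 68 at Nkx2-5, 67 at Nkx2-9, 52 at Nkx2-6 and 44 at Nkx6-3. The median was 61 over all protein-coding genes, 46 over those in K27R peaks and 95 over those in both K27M and EZHIP peaks. The genes with fewest, Nkx6-3 and Nkx2-6, had the narrowest K27M peaks as deposited, and the EZHIP peak was absent at the first and the narrowest at the second. With peaks joined as above, the K27M peak of Nkx2-6, at 39.8 kb, was wider than those of Nkx2-2 and Nkx2-4. This order in K27M was then lost, although that joined peak included the peak over a neighbouring start site. The nearest islands of Nkx6-3 and Nkx2-6 were 3037 and 3064 bp from the start site. A CpG island lay within 1 kb of the start site at the other 8 genes, where 55% of all genes have one. The order did not hold further up, since Nkx2-4 had the most CG of the genes in peaks and an EZHIP peak of 7.2 kb, while Nkx2-5, with 68, had one of 47.8 kb.

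Apart from Ank1, the nearest genes outside these regions had no peak at their start sites in any of the 3 lists. This held for Mbip beside Nkx2-1, Xrn2 beside Nkx2-4, Got1 and Slc25a28 on either side of Nkx2-3, Bnip1 and Kifc5b on either side of Nkx2-5, Agpat9 beside Nkx6-1 and Agpat6 beside Nkx6-3. Because these neighbours were taken from outside the regions, their start sites could not lie in the same K27R peaks. Most genes lie in no peak: the shares of all protein-coding genes in peaks were 30.1% in K27R, 9.02% in K27M and 7.73% in EZHIP. Xrn2, an exonuclease gene used in all cells, ends 5.32 kb from the Nkx2-4 gene body. Inside the 7 regions lay 14 start sites, of which 13 were in K27M peaks and 11 in EZHIP peaks. Rps2-ps5, a ribosomal protein pseudogene by its name that the annotation counts as protein-coding, was in neither, and Pax1 and Nkx6-3 were in K27M peaks alone.

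Genes that work with the Nkx factors were read from lists and set beside the same shares of all genes given above. The NK-related genes Nkx1-1, Nkx1-2 and Nkx3-2 lay in peaks of every list. The K27R peak of Nkx1-1 was 210 kb, its K27M peak 128.8 kb and its EZHIP peak 25.4 kb wide, and Nkx3-2, a factor of somites and cartilage, had 72, 53.4 and 32.2 kb. Of 18 genes of ventral neural tube patterning, the setting of Nkx2-2, Nkx2-9, Nkx6-1 and Nkx6-2, 15 start sites were in K27R, 14 in K27M and 13 in EZHIP peaks. By the wider of their remaining peaks, which was the K27M one, the first 3 were Olig2, the motor neuron and oligodendrocyte factor, with 96.2 kb in K27M and 50 kb in EZHIP, Pax7 with 70.6 and 53.2 kb, and Foxa2, the floor plate factor, with 54.8 and 45.2 kb. The EZHIP peak of Pax6, at 46 kb, was wider than that of Foxa2. Gli1, a target of Hedgehog signalling, was in a K27R peak of 64.4 kb and in neither other list.

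For endocrine pancreas, where Nkx2-2 and Nkx6-1 act, 10 of 13 start sites were in K27R, 8 in K27M and 9 in EZHIP peaks. Pdx1, the pancreatic master regulator, kept 170.2 kb in K27M and 65.4 kb in EZHIP, Neurog3, which starts endocrine differentiation, 83.2 and 17.4 kb, and Insm1 36 and 15.2 kb. Slc2a2, a glucose transporter gene, was in a K27R peak of 4.4 kb alone. Of 12 heart genes, 6, 5 and 4 were in peaks of the 3 lists. Gata4 kept 103 and 46.4 kb, Hand2 51.4 and 13 kb, and Tbx20 40.2 and 22.8 kb, while Nppb, a natriuretic peptide gene, was in a K27R peak of 29.4 kb alone. Of 11 thyroid, lung and forebrain genes, around Nkx2-1, 7, 5 and 3 were in peaks. The transcription factor genes Lhx8 and Foxe1 kept 25.6 and 14.4 kb and 17.4 and 10.4 kb, and the thyrotropin receptor gene Tshr 3.8 and 1.6 kb. The differentiation gene Sftpc, for a surfactant protein, was in a K27R peak and in neither other list. Of 4 spleen and gut genes, around Nkx2-3, Tlx1 kept 85 and 78 kb and Barx1 57 and 34.2 kb, and the other 2 were in no peak of any list.

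The fibroblast label was read against markers of the cells. Of the start sites of 15 fibroblast markers, 14 were in no peak of any list, among them Col1a1, Col1a2 and Vim, and Pdgfra lay in peaks of 35.2, 11.8 and 7 kb. Of 11 epithelial, endothelial and blood markers, 5 were in K27R peaks and 1, Epcam, in K27M and EZHIP peaks. In K27R, the counts of 1 of 15 and 5 of 11 stand beside a share of 30.1% of all genes. In K27M and EZHIP, 1 of 15 and 1 of 11 markers lie near the shares of all genes, 9.02% and 7.73%. Peak lists hold no RNA, so these positions describe the mark and not expression.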

How the data were processed

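H3K27me3 ChIP-Seq was performed on crosslinked, MNase-digested chromatin of MEFs with an H3K27me3 antibody. By the study's methods and processing notes, the authors aligned reads with Bowtie (1.0.0) to mm9 and a spike-in genome (dm6). They called broad peaks in each library with MOSAiCS-HMM, with a stated maximum gap of 10000 bp for H3K27me3. Whether spike-in scaling entered the calls is not given in the sources used here. The authors deposited chromosome, start and end of each peak, without counts, so depth is unknown. The lists held 12845 (K27R), 3736 (K27M) and 4992 (EZHIP) peaks over 582 Mb, 51.0 Mb and 36.5 Mb. All were on the 200 bp grid, and none passed the end of its chromosome.

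Groups were taken from sample titles. Start sites were the 5′ ends of genes in GENCODE vM1 on chromosomes 1 to 19 and X. A gene counted as in a peak when its start site lay inside it, and overlap meant at least 1 shared base. CpG islands (26799) were found in the NCBIM37 sequence by scoring 17 for each CG and -1 for each other base, keeping those over 200 bp whose G+C was 50% or more and whose ratio of observed to expected CG exceeded 0.6. Python 3.11.15, numpy 2.4.6, pandas 2.3.3, numba 0.67.0 and matplotlib 3.10.9 were used, and the scripts were tested on simulated data. With 1 library per group no test was made. The members and the gene lists were chosen with earlier results of these data known. Named genes were the members, the nearest protein-coding gene on each side, and in each list up to 3 genes with the widest peaks in K27M and EZHIP and up to 3 in K27R peaks alone. Some items that this rule names are not reported here. Alternatives were other start sites, distances, minimum widths (2000 and 5000 bp), joining of peaks, counting by region, gene bodies with flanks, autosomes only and larger islands. The Control and EEDnull libraries were left out, because no list of theirs was used here, and the EED null line is a single clone.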

Additional observations from a re-analysis of the deposited data

How the results depend on the processing

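The counts of 9, 9 and 8 genes in K27R, K27M and EZHIP peaks held with any annotated transcript start, with peaks within 1 or 5 kb, with minimum widths of 2000 or 5000 bp and with peaks up to 10000 bp apart joined. Counted once per K27R region they were 7, 7 and 6 of 8 loci. Without the peak-free end of chromosome 7, an alternative chosen after the data were examined, they stayed at 9, 9 and 8, of 9 genes. On autosomes only, the shares of all genes were 28.2%, 8.94% and 7.96%. EZHIP peaks were narrower at 8 of 8 genes in each alternative run. With 5 kb added on both sides, gene bodies held 137.7 kb of K27R, 126.6 kb of K27M and 104.5 kb of EZHIP peaks. Joining peaks gave 42.4 kb of gene body in EZHIP, and 309.1 kb (K27M) and 205.5 kb (EZHIP) within 25 kb. It gave median widths of 44 kb and 25.8 kb, and 442.2 kb (32.1%) and 277.8 kb (20.2%) of the K27R regions. A minimum of 5000 bp gave 296.0 kb (K27M) and 186.1 kb (EZHIP) within 25 kb, and 411.6 kb (30.4%) and 255.6 kb (18.9%) of the regions. A minimum of 2000 bp gave 417.6 kb (30.8%) in K27M. With islands of at least 500 bp, 11 K27M and 9 EZHIP peaks held one. No library could be left out, and no paired analysis was possible because each group had 1 library. Unknown depth limits every absence of a peak.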
